A study of Pardosa pseudoannulata with 16 samples.

Results

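The clusters described here are assembled transcript sequences of the wolf spider Pardosa pseudoannulata that were lower in UH and UM spiders than in UL and Ck spiders in every library. They were selected by their measured values: on log2(FPKM + 1), the highest of the 8 UH and UM values had to lie below the lowest of the 8 UL and Ck values. FPKM counts fragments per kilobase of a cluster, scaled to the fragments mapped in the library. Of 136360 clusters, 218 met the rule, and the 150 with the widest gap are the members. All 150 were therefore bound to be lower in UH and UM, and their differences between UH with UM and UL with Ck are given as descriptions without a test. Only UH against UM and UL against Ck, which the rule did not set apart though it used their values, were tested.

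The series concerns the effect of urea, used as nitrogen fertiliser, on the hunting of this spider. According to its design text, adults from rice fields were kept for 30 days on soil with urea at 0, 200 or 400 mg/kg. RNA of whole spiders was sequenced in 4 groups named UH, UM, UL and Ck, with 4 libraries each. The labels carry 1 entry for treatment, urea, in all 16 libraries, Ck included, and do not say which concentration a group received, so no order of concentration is used. Ck was taken as the control because that is a usual abbreviation. Sex, age and the number of spiders in a library are not given. Whether the 4 libraries of a group stem from separate spiders or pools is not stated either, and p-values cover no more than the spread among these libraries, which may be technical.

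Pardosa pseudoannulata is a hunting spider that runs down insects without a web and is valued in rice for preying on planthoppers. Urea releases ammonia and related nitrogen compounds as it is broken down in soil, and arachnids excrete their own surplus nitrogen mainly as guanine. A whole-spider library mixes venom glands, silk glands, midgut, muscle, nervous tissue, ovary or testis and cuticle. In such bulk samples fewer cells of a type and less RNA per cell cannot be told apart. No gene name, description or sequence is given in the table for a cluster, so members are named by their cluster numbers, their functions are not given, and tissue markers could not be looked up. A transcript can also be split over several clusters, so members are not counted as genes.

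Estimated depth was 16.52 to 20.77 M (mega) fragments per library, read from the steps between low FPKM values. A single cluster of 703 bases took 8.28 to 11.8% of the FPKM sum in UH, 10.5 to 14.7% in UM, 6.22 to 15.9% in UL and 6.66 to 7.35% in Ck. Median ratio scaling, which sets each library against the others over 38721 clusters listed above 0 everywhere, gave factors of 0.860 to 0.905 in UH, 1.02 to 1.10 in UM, 0.932 to 1.24 in UL and 0.945 to 1.09 in Ck. As deposited, the median log2 difference of all 36003 clusters tested was -0.11 between UH with UM and UL with Ck, and -0.19 between UH and UM. After this scaling these medians were -0.02 and 0.01. Whether these shifts bear on the members' levels was looked at by giving counts on both scales.

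Most members were lowered by a modest amount and did not vanish. The median FPKM of the 150 members was 1.67, 1.825, 1.69 and 1.89 in the 4 UH libraries, 2.465, 2.28, 2.28 and 2.475 in the UM libraries, 3.74, 3.425, 4.28 and 4.325 in the UL libraries, and 3.37, 4.28, 3.435 and 4.27 in the Ck libraries. Mean FPKM over UH and UM was at least 2-fold below the mean over UL and Ck in 72 members and at least 4-fold below in 33, counting the 8 listed at 0 in all 8 UH and UM libraries. Among members above 0 in UH or UM the fold was 1.89 at the median, with quartiles of 1.53 and 2.60 and a smallest value of 1.32. Of the 150, 121 were listed above 0 in all 16 libraries, and all 150 were above 0 in all UL and Ck libraries, as the rule requires.

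The members' median log2 difference, UH and UM minus UL and Ck, was -0.61, beside -0.11 over all clusters tested. After median ratio scaling it was -0.51, beside -0.02. On that scale 95 members still met the rule and 55 did not, and 59 met it after quantile normalization. Members that no longer met it after median ratio scaling had a median fold of 1.55, against 2.22 in those that still did. After each of the 2 scalings 49 members met the rule. For all other members the separation thus depended on how the libraries were scaled.

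**Figure D1:**
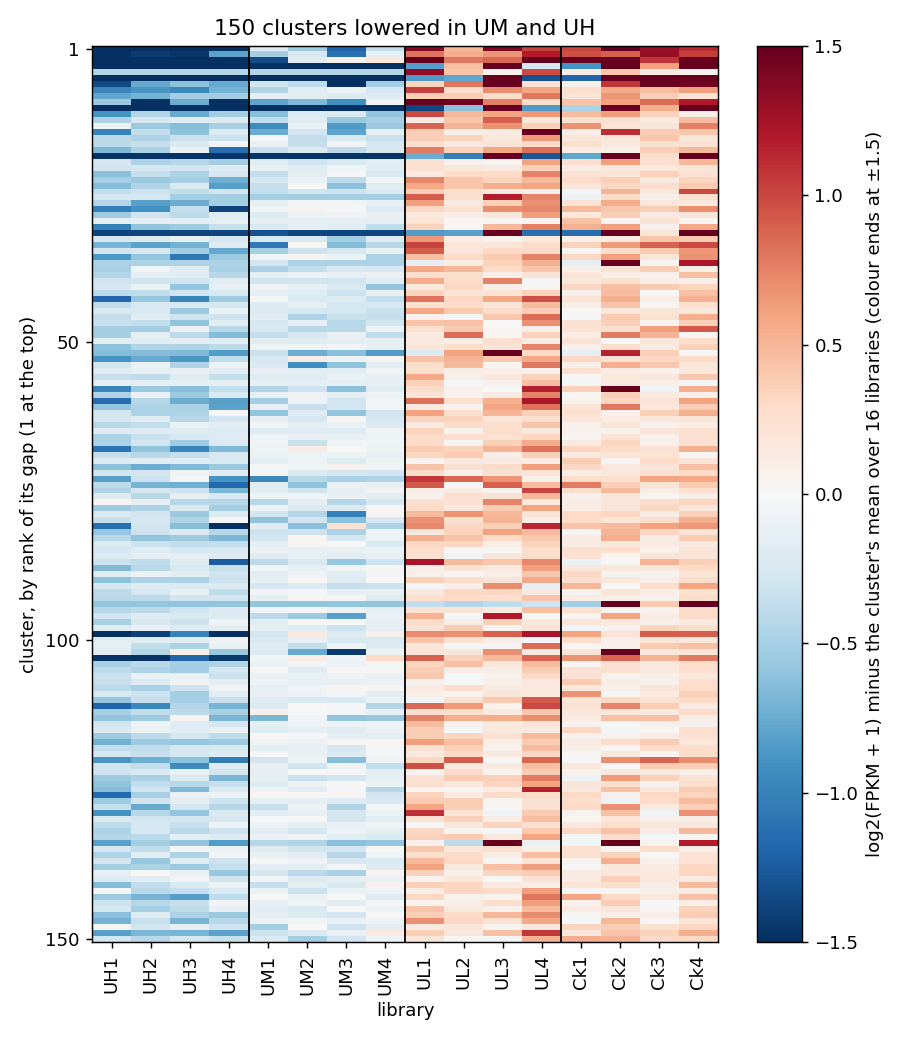
Heat map of the 150 members (rows, by rank of the gap) in the 16 libraries (columns, grouped as UH, UM, UL and Ck), coloured by log2(FPKM + 1) minus the member's own mean; blue is lower and red is higher. The 8 UH and UM columns are lower than the 8 UL and Ck columns in each row because the rule selected such rows, and most rows are pale, with a median fold of 1.89.

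The gap that ranks the members was 0.70 for the first, 0.09 at the median and 0.03 for the last, all on the log2 scale, and 67 members had a gap over 0.1. The last member inside the top 150 had at most 1.5 FPKM in UH and UM and at least 1.56 FPKM in UL and Ck, a gap of 0.034216. The first cluster outside had at most 1.11 and at least 1.16 FPKM, a gap of 0.033788. At a gap of 0, the last cluster inside had at most 8.67 and at least 8.68 FPKM, and the next tested cluster had 10.73 FPKM on both sides. Neither edge marks a break in the values. UM held the highest of the 8 UH and UM values in 116 members and UH in 34. The lowest of the 8 UL and Ck values lay in UL in 69 members and in Ck in 81, most often in Ck replicate 1, with 36. Leaving out a library can add clusters and cannot remove any: without Ck replicate 1 the rule took 433 clusters in place of 218, without UM replicate 3 it took 345, without Ck replicate 3 it took 337 and without UM replicate 2 it took 329. Of the 150 members, 84, 97, 99 and 101 were then among the 150 with the widest gap.

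Members were longer and steadier than the clusters tested as a whole. Their median length was 2160 bases, with quartiles of 1006 and 4404, beside 1227 bases over the 36003 clusters tested and 599 over the whole table. At least 1000 bases long were 113 of 150 members (75.3%), beside 56.3% of the clusters tested. The median spread between replicates within a group was 0.18 on the log2 scale for members and 0.34 for clusters tested. The rule favours clusters of small spread, and its part in these values was not tested. The members also include 27 that did not pass the filter for testing, and log2(FPKM + 1) narrows the spread of low values. In name, 147 members (98.0%) carried the most frequent first number of the table, as did 98.3% of the clusters tested. In abundance 22 members averaged under 1 FPKM over UL and Ck, 92 between 1 and 10, 34 between 10 and 100, and 2 over 100 FPKM.

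The 2 most abundant members were lowered less than 2-fold on average. Cluster-9253.48283 (2313 bases) had 355.21, 387.57, 564.02 and 277.18 FPKM in UH, 692.8, 760.8, 708.43 and 634.79 in UM, 898.02, 853.5, 1176.3 and 1196.26 in UL, and 1018.24, 957.83, 939.93 and 1174.84 in Ck. It stood at 3 levels, with every UH library below every UM library and UL and Ck overlapping. Its mean was 396 FPKM ± 121 in UH, 699 ± 51.9 in UM, 1031 ± 180 in UL and 1023 ± 107 in Ck (SD, n = 4 each).

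Cluster-9253.47689 (1377 bases) had 201.65, 231.93, 274.23 and 178.62 FPKM in UH, 249.82, 318.46, 206.29 and 279.77 in UM, 477.28, 423.66, 465.25 and 481.16 in UL, and 359.24, 395.77, 382.9 and 417.16 in Ck. Here UH and UM overlapped, while all UL values lay above all Ck values. After quantile normalization its gap was -0.11, so it no longer met the rule. Neither its UH against UM difference (log2 fold change -0.25 ± 0.17 SE, limma adjusted p = 0.413) nor its UL against Ck difference (0.25 ± 0.17, adjusted p = 0.461) passed the threshold of 0.05.

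The 2 members with the widest gap were shorter than the median member. Cluster-9253.35248 (541 bases) had 0.39, 0.62, 0.76 and 0.39 FPKM in UH, 3.56, 2.65, 1.32 and 3.09 in UM, 12.62, 6.42, 12.95 and 9.68 in UL, and 9.54, 16.18, 11.93 and 10.59 in Ck. The groups again formed 3 levels without overlap between UH and UM. On so short a cluster the UH values come to about 2 to 4 fragments each, and the lowest UL value to about 35. Cluster-9253.58023 (672 bases) had 0.13, 0.41, 0.38 and 1.17 FPKM in UH, 1.67, 2.19, 0.74 and 2.48 in UM, 5.62, 4.51, 4.97 and 7.6 in UL, and 6.39, 6.05, 8.36 and 6.74 in Ck. UH replicate 4 lay above UM replicate 3 in this member, so UH and UM overlapped. Means over UH and UM were 7.04-fold and 5.48-fold below the means over UL and Ck in these 2 members.

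**Figure D2:**
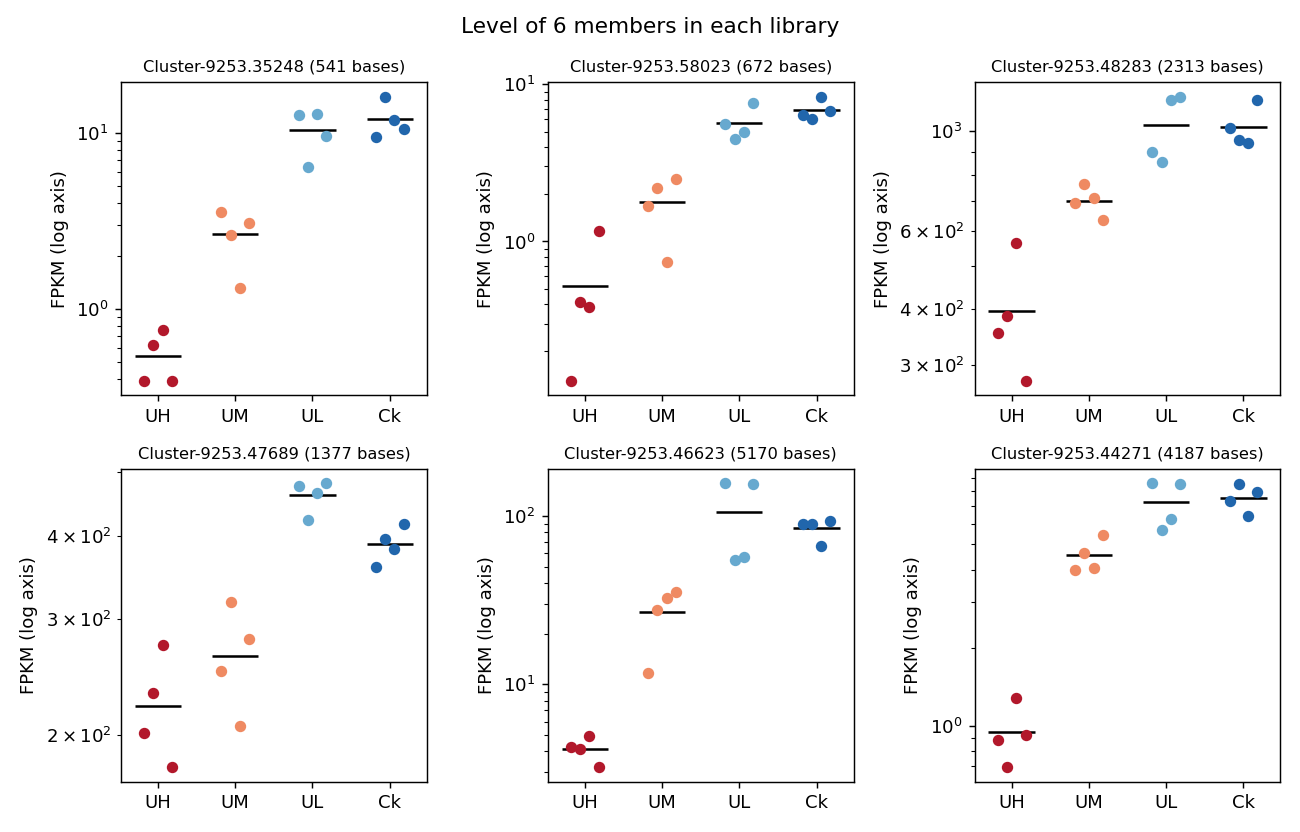
FPKM in each library (log axes) of the 2 members with the widest gap, the 2 most abundant members and the 2 with the largest fall in UH against UM; points are libraries and bars are means of 4. In Cluster-9253.46623 the UH libraries lay between 3.21 and 4.95 FPKM and the UM libraries between 11.68 and 35.15, while in Cluster-9253.47689 the UH and UM libraries overlapped.

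The step between UM and UH was uneven across members. Of the 123 members that had at least 1 FPKM in at least 4 libraries and so were tested, 12 fell in UH against UM and 0 rose (limma, adjusted p under 0.05). Over all 36003 clusters tested the share that fell was 2.55% and the share that rose was 0.278%; 12 of 123 is 9.76%. All 12 had their 4 UH values below their 4 UM values. By that measure alone, UH lay wholly below UM in 40 of the 150 members (26.7%), beside 14.6% of the clusters tested. Of these 40, 39 were among the 123 tested members, the set more like the clusters tested. UH lay wholly above UM in 0 members, beside 1.79%. The rule favours clusters of small spread within a group (median 0.18 for members, 0.34 for clusters tested). The part of that spread in these shares was not tested. Of the 123, 4 were listed at 0 in all 8 UH and UM libraries and so could not differ. The filter can be met by UL and Ck values alone, so other members among the 123 also held little signal in UH and UM. Cluster-9253.95691, for example, had at most 0.52 FPKM there. The share of 9.76% is over all 123, such members included. The members' median step was close to that of the clusters tested: the log2 difference, UH minus UM, was -0.16 for members and -0.19 for clusters tested. Over the whole table it was -0.02. Its quartiles among members were -0.33 and -0.02.

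Scaling reduced these counts. After median ratio scaling 4 members fell, beside 0.917% of the clusters tested, and 0 rose, beside 0.547%. UH then lay wholly below UM in 15 of the 150 members, beside 5.07% of the clusters tested, and wholly above in 4, beside 5.51%. All of these were tested members. The median step was 0.00 for members and 0.01 for clusters tested, with 72 members below 0 and 70 above. After quantile normalization 6 members fell, beside 0.914%, and 0 rose, beside 0.253%. With array weights, which give noisier libraries less weight, 33 fell, beside 11.8%, and 0 rose, beside 1.63%. Without UH replicate 1, in turn, 6 fell, while 1.05% of the clusters tested passed in either direction.

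**Figure D3:**
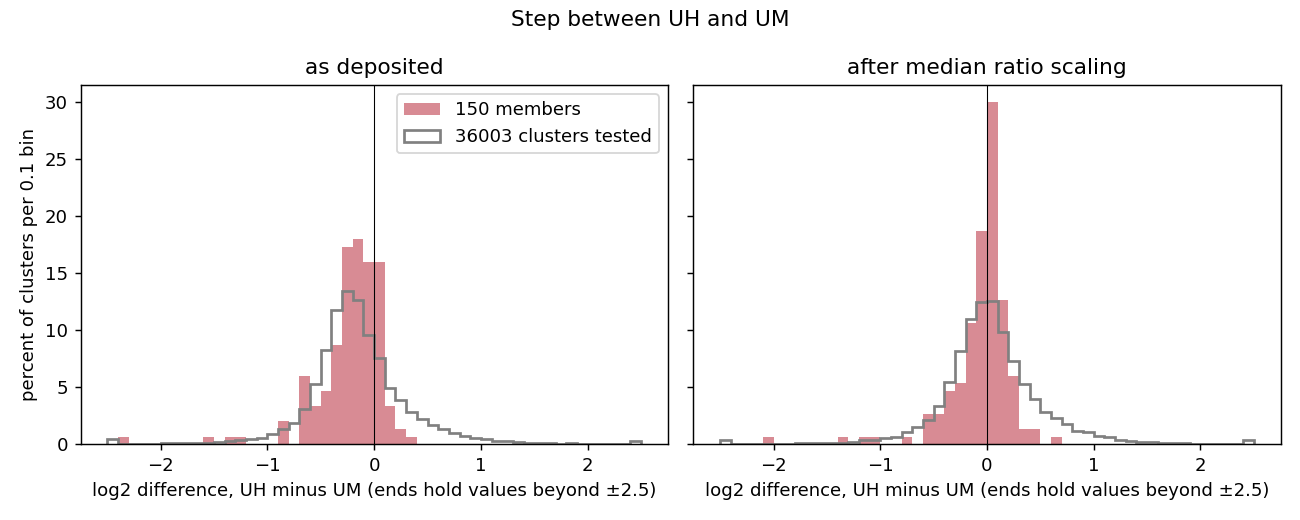
Log2 difference, UH minus UM, as the percentage of clusters per bin of 0.1, for the 150 members (filled) and the 36003 clusters tested (line), as deposited (left) and after median ratio scaling (right). As deposited both sets centre below 0, with medians of -0.16 and -0.19, and after scaling both centre near 0, with a tail of members that stay lower in UH.

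The largest step was that of Cluster-9253.46623 (5170 bases). It had 4.25, 4.12, 4.95 and 3.21 FPKM in UH, 11.68, 27.8, 32.46 and 35.15 in UM, 156.18, 54.37, 57.21 and 154.81 in UL, and 88.96, 89.18, 66.49 and 93.53 in Ck. The mean fell to 4.13 FPKM ± 0.715 in UH, against 26.8 ± 10.5 in UM (SD, n = 4), a 6.48-fold difference. Its log2 fold change was -2.34 ± 0.38 (SE, limma adjusted p = 0.00526) as deposited and -2.08 ± 0.35 (adjusted p = 0.00888) after median ratio scaling. UM replicate 1 was the lowest UM library, and the UL libraries formed a high and a low pair.

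Cluster-9253.44271 (4187 bases) had 0.88, 0.69, 1.28 and 0.92 FPKM in UH, 3.99, 4.65, 4.07 and 5.41 in UM, 8.6, 5.69, 6.28 and 8.57 in UL, and 7.32, 8.52, 6.41 and 7.94 in Ck. Its UM values sat just under the UL and Ck values, with a gap of 0.06, and most of its distance lay between UM and UH. The mean fell to 0.943 FPKM ± 0.246 in UH, against 4.53 ± 0.656 in UM (SD, n = 4). The log2 fold change was -1.51 ± 0.15 (SE, limma adjusted p = 0.000231), and -1.33 ± 0.13 (adjusted p = 0.000226) after median ratio scaling.

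The 12 members that fell had log2 fold changes between -2.34 and -0.40, with adjusted p between 0.000231 and 0.0424, and lengths of 541 to 6814 bases. Cluster-9253.35248 and Cluster-9253.48283, described above, were among them, with log2 fold changes of -1.21 ± 0.24 and -0.86 ± 0.21 (SE). Of the 12, 4 also fell after median ratio scaling, Cluster-9253.46623, Cluster-9253.44271 and Cluster-9253.35248 among them. The adjusted p of the other 8 was then between 0.0503 and 0.43, with 0.256 for Cluster-9253.48283.

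As deposited, UM lay between UH and the upper groups in most members. On the log2 scale, as deposited, UM had covered 70.6% of the distance between the UL and Ck mean and the UH mean at the median, with quartiles of 56.8 and 95.6%. In 21 members UM had covered less than 50%, and in 32 members the UM mean was at or below the UH mean. In the 12 members that fell in UH against UM, UM had covered 28.5 to 59.1%. They were picked for UH values below UM, which by itself lowers this percentage. After median ratio scaling the median over members was 100%. UH then lay below UM in 72 members and above it in 70, so UM no longer lay between in most. No tested member rose past the threshold in UH against UM. The largest positive difference among those tested was that of Cluster-9253.39883 (359 bases), with 24.74, 20.13, 29.57 and 18.41 FPKM in UH and 23.71, 16.07, 9.63 and 26.19 in UM. These overlapped and the difference did not pass (log2 fold change 0.35 ± 0.36 SE, limma adjusted p = 0.609). After either scaling this member no longer met the rule, with gaps of -0.45 and -0.20.

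**Figure D4:**
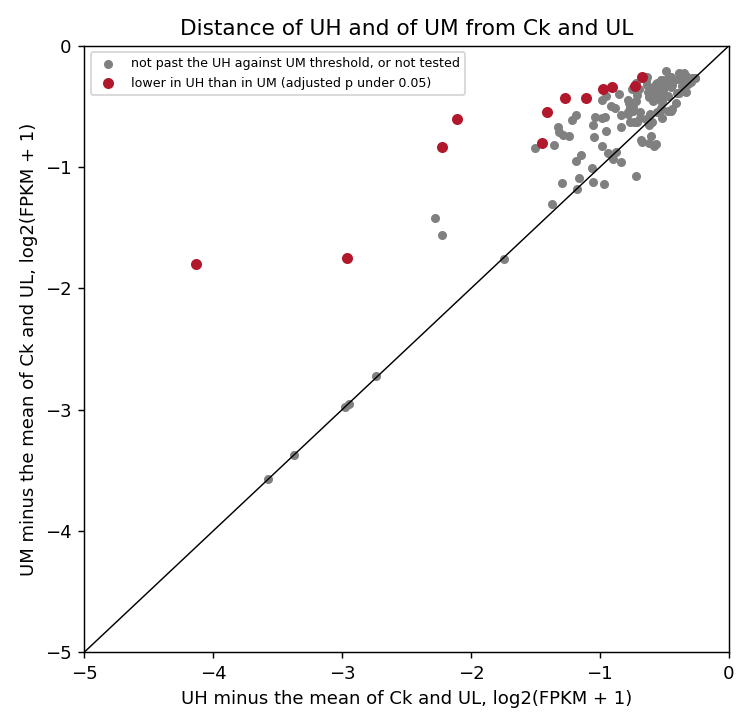
Distance of the UH mean (horizontal) and of the UM mean (vertical) from the mean of the UL and Ck libraries, in log2(FPKM + 1), for the 150 members; the line marks equal distance and red points are the 12 members that fell in UH against UM. Points above the line have UM nearer to UL and Ck. The red points had covered 28.5 to 59.1% of the distance in UM, as deposited, a range that their selection itself lowers.

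A small subset was listed at 0 or nearly so in UH and UM, and part of it varied widely in UL and Ck. In 8 members all 8 UH and UM values were listed at 0. Some of these 8 were scarce throughout, with no more than a few estimated fragments in any UL or Ck library. In 7 of the 8 the lowest UL or Ck value came to about 1 fragment, and 4 of the 8 passed the filter for testing. An example that varied widely is Cluster-9253.32759 (499 bases), listed at 0 in all UH and UM libraries. It had 0.24, 1.08, 226.53 and 0.78 FPKM in UL and 1.33, 156.24, 3.64 and 73.66 in Ck. Its values come to about 1, 5, 1058 and 3 fragments in UL and 6, 753, 15 and 339 in Ck. UL replicate 3 and Ck replicates 2 and 4 thus held nearly all of its signal, and the separation from UH and UM in the other libraries rested on a few fragments.

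The same 3 libraries were the highest of the 16 in 6 members (4.00%), beside 6.34% of the whole table. Of the 6, 5 were among the 123 tested members (4.07%), beside 0.864% of the clusters tested. Members were above 0 in every UL and Ck library by the rule, while neither of these sets was held to that, so nothing particular to the members is read from these shares. This grouping was seen in the values and has no test. In the 5 most abundant of these 6, UL replicate 3 had 226.53 to 401.18 FPKM, Ck replicate 2 had 23.19 to 156.24, Ck replicate 4 had 21.35 to 74.56 and Ck replicate 3 had 1.94 to 11.84. The other 4 UL and Ck libraries had 0.14 to 2.84 FPKM, which comes to about 1 to 11 fragments. Ck replicate 2, Ck replicate 4 and UL replicate 3 were also the 3 libraries with the most clusters above 0, at 97015, 92067 and 90373, against 76712 to 83174 in UH and UM and 77409 to 81832 in the other UL and Ck libraries. The part of these libraries' wider detection in the values of the 6 members was not tested.

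**Figure D5:**
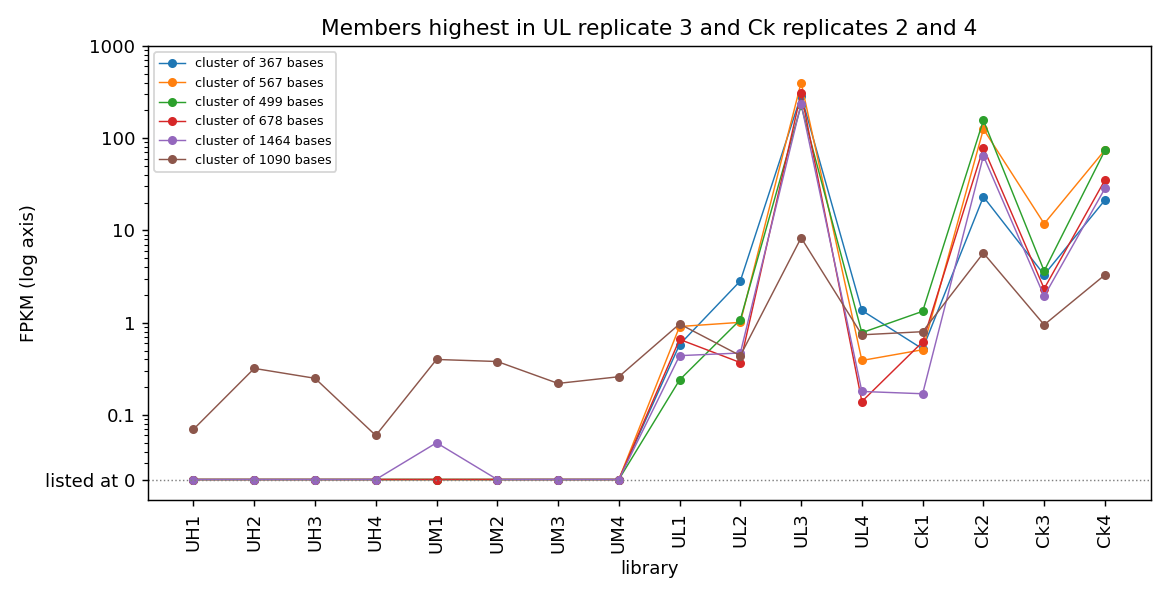
FPKM (log axis) in each library of the 6 members whose 3 highest libraries were UL replicate 3 and Ck replicates 2 and 4; lines join the values of 1 member, and values listed at 0 are drawn on the dotted line. In 5 of the 6, UL replicate 3 exceeded 226 FPKM while UH and UM were listed at 0 but for 0.05 FPKM in UM replicate 1.

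Between UL and Ck no member passed the test. Of the 123 tested, 0 passed in UL against Ck (limma, adjusted p under 0.05); 7 (5.69%) had an unadjusted p under 0.05 and were higher in UL, beside 9.45% of the clusters tested, and 0 were lower in UL, beside 7.32%. The lowest adjusted p was 0.24. Over all clusters tested 0.0139% fell and 0.00278% rose. These small shares rested on Ck replicate 2: without it 5.93% of the clusters tested passed, in either direction, and 0 members did. With array weights 3.05% and 0 members passed. UL lay wholly above Ck in 4 of the 150 members (2.67%), beside 3.51% of the clusters tested, and wholly below in 1 (0.667%), beside 1.45%. Each of these was among the 123 tested. The members' median log2 difference, UL minus Ck, was 0.09, beside 0.10 over the clusters tested, and -0.01 beside 0.01 after median ratio scaling. Among tested members the largest differences in the 2 directions were those of Cluster-9253.32759 (log2 fold change -1.73 ± 1.5 SE, limma adjusted p = 0.573) and Cluster-9253.95691 (0.64 ± 0.55, adjusted p = 0.569). Cluster-9253.95691 (1005 bases) had 0.65, 1.91, 17.38 and 1.35 FPKM in UL and 0.76, 3.25, 1.45 and 0.92 in Ck. Without UL replicate 3 its difference was -0.12.

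The 27 members that did not pass the filter averaged 0.205 to 3.39 FPKM over UL and Ck, and their step between UM and UH was not tested. In 11 of the 150 members the lowest UL or Ck library held fewer than 3 estimated fragments, 7 of them among these 27. By contrast 101 members held 10 or more estimated fragments in every library. Cluster-9253.46820, with 0.1, 0.24, 0.09 and 0.14 FPKM in UH, was no member. Its UM values of 249.94 to 930.62 FPKM did not lie below its UL and Ck values of 38.04 to 675.42.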

How the data were processed

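For 16 whole-spider libraries the deposited table holds FPKM per cluster as the authors computed it, per the file headers, with 2 decimals. Poly-A RNA was copied with random primers, per the labels' protocols. How reads were assembled, aligned and counted is not given in the sources used here. A mouse build, mm10, appears in the submitters' processing notes and does not match the organism. Cluster length is as listed by the authors and taken to be in bases.

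Depth was estimated by a grid search for the depth and fragment length at which low values (1 to 10 fragments, clusters no longer than 900 bases) came closest to whole numbers; 96.4 to 98.9% were whole within 0.1. These fragments are estimates, so no count model was run. FPKM entered as log2(FPKM + 1), which understates changes of low clusters. Clusters reaching 1 FPKM in 4 libraries or more (36003) were fitted over all 16 libraries in limma 3.58.1, under R 4.3.3, with a trended prior variance, two-sided, and p-values were adjusted by Benjamini-Hochberg over all clusters tested (threshold 0.05). All p-values are from this fit, or from the same fit on scaled values where the sentence names the scaling. It was tested on simulated data.

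Members and tests were chosen with earlier results of these data known. Named are the 2 members with the widest gap, the 2 most abundant in UL and Ck, and up to 2 with the largest fold change in each direction of UH against UM and UL against Ck; Cluster-9253.46820, and the group of 6 with 3 libraries highest, were chosen after their values were seen. Other scalings, filters, pseudocounts, fits and left-out libraries were tried.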

Additional observations from a re-analysis of the deposited data

Results flagged for a closer look

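For the named members and for the members' summed share and median level, 44 groups of 4 libraries were looked at for a single library far from the other 3. Of these, 6 were flagged. Chance flags about 1 in 20 groups of normally distributed values. FPKM was taken here without logs, and some members were named for extreme values, so the 6 flags are not compared with that rate. UL replicate 3 stood above the other UL libraries in 3 members. Cluster-9253.32759 had 226.53 FPKM there, against 0.24 to 1.08 in the others, Cluster-9253.95691 had 17.38, against 0.65 to 1.91, and Cluster-9253.39883 had 45.12, against 30.91 to 32.13. Cluster-9253.39883 also had 100.45 FPKM in Ck replicate 2, against 31.03 to 32.19 in the other Ck libraries. Cluster-9253.46623 had 66.49 FPKM in Ck replicate 3, below the 88.96 to 93.53 of the other Ck libraries. Cluster-9253.95691 had 0.07 FPKM in UH replicate 4, against 0.21 to 0.22 in the other UH libraries, which amounts to a few fragments.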

How the results depend on the processing

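The number of members that fell in UH against UM, 12 in the fit used, was 7 with no filter on low values, 4 after median ratio scaling, 6 after quantile normalization, 33 with array weights, and 6 to 10 with 1 UH or UM library left out; 0 rose in any of these. The share of all clusters tested that passed, in both directions, was 2.82% in the fit used, and under these settings 0.384%, 1.46%, 1.17%, 13.4%, and 1.05 to 2.05%. The falls of Cluster-9253.46623 and Cluster-9253.44271 passed in all 16 alternatives. Counts of members without overlap are over all 150, tested or not, and the shares beside them are over the clusters tested. Between UH and UM they numbered 40 as deposited (16.4%), 19 after median ratio scaling (10.6%) and 27 after quantile normalization (10.3%). With 1 library left out they numbered 43 to 50 (18.7 to 27.4%). In UL against Ck 0 members passed in the alternatives, except 1 when Ck replicates 2 and 4 and UL replicate 3 were left out together, a choice made after seeing the data. In that setting 10.7% of the clusters tested passed, and 0.00556 to 5.93% with 1 library left out. Members without overlap between UL and Ck, 5 as deposited (4.96% of the clusters tested), were 2 (5.02%) and 3 (2.95%) after median ratio scaling and quantile normalization and 7 to 17 with 1 library left out (6.26 to 16.2%). Of the 150 members, 84 stayed in the top 150 after median ratio scaling, 59 after quantile normalization, 84 to 142 with 1 library left out, and 53 without the 3 libraries named. Clusters that met the rule numbered 106 after quantile normalization, 226 to 433 with 1 library left out and 507 without those 3. The gap of Cluster-9253.39883 turned to -0.45 and -0.20 under the 2 scalings, that of Cluster-9253.47689 to -0.11 under quantile normalization, and the UL against Ck difference of Cluster-9253.95691, 0.64 in the fit used, to -0.12 without UL replicate 3 (-0.12 to 1.04 with 1 library left out). The cause of these changes was not tested, other than that fewer libraries make separation easier.

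With the replicate number as a block, 8 members fell in UH against UM and 0 passed in UL against Ck. Of the clusters tested, 2.16% and 0.0139% then passed, in either direction. No clear pairing of the libraries by number was seen, though 4 numbers per comparison cannot exclude one. Deviations of same-numbered libraries correlated between -0.09 and 0.09 for UH with UM and between -0.28 and 0.14 for UL with Ck. The own number correlated best in 2 of 4 and 1 of 4 cases. Depth limits the short and scarce members, of which 11 had fewer than 3 estimated fragments in a UL or Ck library.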
